A study of Mus musculus with 4 samples.

Results

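The 10 genes described here, Ucp1, Elovl3, Pck1, Cidea, Dio2, Ppargc1a, Cox8b, Cox7a1, Otop1 and Adrb3, belong to the heat-producing program of brown fat and were measured by RNA-seq in sympathetic ganglia (SG) taken from thoracic levels T1-T4. They were chosen by name after the FPKM values and read counts of these libraries were known, in order to set Ucp1 beside other thermogenic genes. Every value given for them is therefore a description and none was tested. All 10 were found by symbol, out of 17667 genes listed in at least 1 library, and all 10 were among the 15275 genes listed in all 4. There were 4 libraries, each from SG of 6 pooled C57BL/6 mice aged 12 weeks that had spent 1 day at 5 °C: WT_1 and WT_2 from wild-type (WT) mice, 1 from TRKC+/- mice and 1 from AdNTF3-Tg mice. TRKC+/- mice have 1 intact copy of Ntrk3, the gene of the neurotrophin-3 (NT-3) receptor TRKC, in every cell. AdNTF3-Tg mice carry the NT-3 coding sequence behind a fragment of the adiponectin promoter, which is active in adipocytes. The study reports more NT-3 in white fat, a smaller rise in brown fat, and no change in liver, muscle or brain. It gives no measure of NT-3 in the ganglia of these mice. The labels do not say which WT library goes with which mutant, so each mutant library was set against WT_1 and against WT_2. With 1 library per mutant, the difference between WT_1 and WT_2 was the only spread between pools of 1 genotype, and no p-value was computed.

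The libraries held between 8665955 and 8894985 reads assigned to genes. Ganglion neurons dominated all 4: Th, the rate-limiting enzyme of noradrenaline synthesis, lay between 2576 and 2753 FPKM (fragments scaled to gene length and to the reads of the library). None of 16 sympathetic neuron genes differed by 0.5 or more on the log2 scale in any of 5 comparisons. Per comparison and direction, 4.63% to 8.24% of all 15275 genes did. Ntrk3, the targeted gene, was at 2.72 FPKM in the library labelled TRKC+/-, at 2.45 in WT_1, 2.52 in WT_2 and 2.32 in AdNTF3-Tg. Its level over the whole gene thus did not mark the heterozygous pool. The study separately reports lower Trkc expression in SG of TRKC+/- mice than of WT littermates. Directions below belong to the library labelled TRKC+/-. Ntf3, the gene of NT-3, had 2 reads in that library and was listed in no other, which for AdNTF3-Tg allows up to 3 reads.

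Brown adipocytes make heat with UCP1, a carrier of the inner mitochondrial membrane that lets protons return to the matrix without making ATP. Sympathetic nerves release noradrenaline in the cold, which acts on the beta3-adrenergic receptor (Adrb3) of the adipocyte, and cAMP raises lipolysis and the transcription of Ucp1, with the coactivator PGC-1alpha (Ppargc1a) and the thyroid hormone-activating deiodinase DIO2 among the amplifiers. The neurons that do this sit in the SG, while Ucp1 itself is a marker of brown and beige adipocytes, and fat lies close to thoracic ganglia. In bulk RNA of this kind, fewer adipocytes in a pool and less RNA of a gene per adipocyte cannot be told apart. Which cells supplied the RNA of each member was not tested.

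Promoters of 4 of the genes that were lowest in the library labelled TRKC+/-, and of Ppargc1a, which hardly differed, are shown because several of these genes are known to answer to cAMP. Each is the stretch from 250 bases before to 50 bases after the start site in RefSeq's GRCm38.p6 table, 5' to 3' on the gene's own strand, placed on NCBIM37 (mm9) by an exact match. Capitals mark TGACG, the core of the cAMP response element, AGGTCA, a nuclear receptor motif, and TATAAA, the TATA box, each searched on both strands, so that CGTCA is TGACG on the other strand. They lie at chr8:85813997-85814296 (Ucp1, plus strand), chr2:172978324-172978623 (Pck1, plus strand), chr12:91977429-91977728 (Dio2, minus strand), chr7:148086296-148086595 (Cox8b, minus strand) and chr5:51958915-51959214 (Ppargc1a, minus strand).
Ucp1: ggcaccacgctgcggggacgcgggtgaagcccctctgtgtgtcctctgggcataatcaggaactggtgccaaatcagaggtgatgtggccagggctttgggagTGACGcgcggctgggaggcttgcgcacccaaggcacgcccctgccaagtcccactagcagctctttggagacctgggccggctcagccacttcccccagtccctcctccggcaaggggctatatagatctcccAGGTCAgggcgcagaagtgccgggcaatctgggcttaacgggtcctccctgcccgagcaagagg
Pck1: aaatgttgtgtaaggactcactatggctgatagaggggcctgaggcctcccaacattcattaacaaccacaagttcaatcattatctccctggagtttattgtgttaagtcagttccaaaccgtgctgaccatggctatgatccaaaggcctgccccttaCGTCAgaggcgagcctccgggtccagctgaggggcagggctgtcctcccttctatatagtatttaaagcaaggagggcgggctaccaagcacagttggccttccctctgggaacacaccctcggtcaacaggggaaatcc
Dio2: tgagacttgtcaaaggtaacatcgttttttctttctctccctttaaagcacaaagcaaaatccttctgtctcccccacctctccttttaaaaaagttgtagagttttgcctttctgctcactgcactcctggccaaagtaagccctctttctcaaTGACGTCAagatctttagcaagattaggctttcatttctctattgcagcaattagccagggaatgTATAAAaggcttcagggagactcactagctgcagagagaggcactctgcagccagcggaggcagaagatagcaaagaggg
Cox8b: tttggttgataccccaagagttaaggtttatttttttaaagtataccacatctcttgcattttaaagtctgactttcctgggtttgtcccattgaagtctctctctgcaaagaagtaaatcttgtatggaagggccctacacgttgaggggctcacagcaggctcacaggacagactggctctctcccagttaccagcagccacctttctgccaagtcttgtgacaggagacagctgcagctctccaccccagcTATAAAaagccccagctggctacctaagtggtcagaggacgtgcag
Ppargc1a: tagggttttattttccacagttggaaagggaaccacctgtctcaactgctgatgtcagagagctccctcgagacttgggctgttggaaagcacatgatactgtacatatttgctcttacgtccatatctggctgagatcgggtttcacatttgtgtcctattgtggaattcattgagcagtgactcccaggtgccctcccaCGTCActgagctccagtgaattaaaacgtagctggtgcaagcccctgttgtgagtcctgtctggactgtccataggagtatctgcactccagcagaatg
With the start site as position 0, TGACG began at -147 in Ucp1, at -90 in Pck1 on the other strand, at -95 and, overlapping it on the other strand, at -92 in Dio2, and at -49 in Ppargc1a on the other strand. It was therefore held both by genes that were low in the library labelled TRKC+/- and by Ppargc1a, and it was not in this window of Cox8b. AGGTCA began at -14 in Ucp1, and TATAAA at -30 in Dio2 and at 4 in Cox8b. Of the 7 members with a promoter taken from the table, Cox7a1 and Otop1 held none of the 3 motifs. Among 32851 promoters of the same length, 20.81% held TGACG, 16.26% AGGTCA and 13.62% TATAAA on either strand. A match is a match of letters and says nothing about binding.

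Levels per gene length put Cidea and Ucp1 far above the other members in 3 of the 4 libraries. In WT_1, Cidea was at 54.3 FPKM and Ucp1 at 47.3, followed by Cox7a1 at 16.9, Cox8b at 12.8, Pck1 at 7.04 and Elovl3 at 2.71, with Dio2, Ppargc1a, Otop1 and Adrb3 between 1.31 and 0.71. WT_2 gave nearly the same order, with Ucp1 at 48.1 FPKM and Cidea at 46.1 in first and second place. In the library labelled TRKC+/-, Cidea remained first at 43.0 FPKM, while Ucp1, at 7.80, stood after Cox7a1 at 10.8. Some neighbours had 95% counting intervals that overlapped, which makes their order less certain but does not by itself show that it is unset. In both WT libraries these were Cidea with Ucp1, Cox7a1 with Cox8b, and each neighbouring pair from Dio2 down. In the library labelled TRKC+/- they were Cox7a1 with Ucp1, Ucp1 with Cox8b, and each neighbouring pair from Pck1 down, and in AdNTF3-Tg Cidea with Ucp1, Cox8b with Cox7a1, and each neighbouring pair from Elovl3 down. Adrb3 rested on 13 to 17 reads per library.

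**Figure D1:**
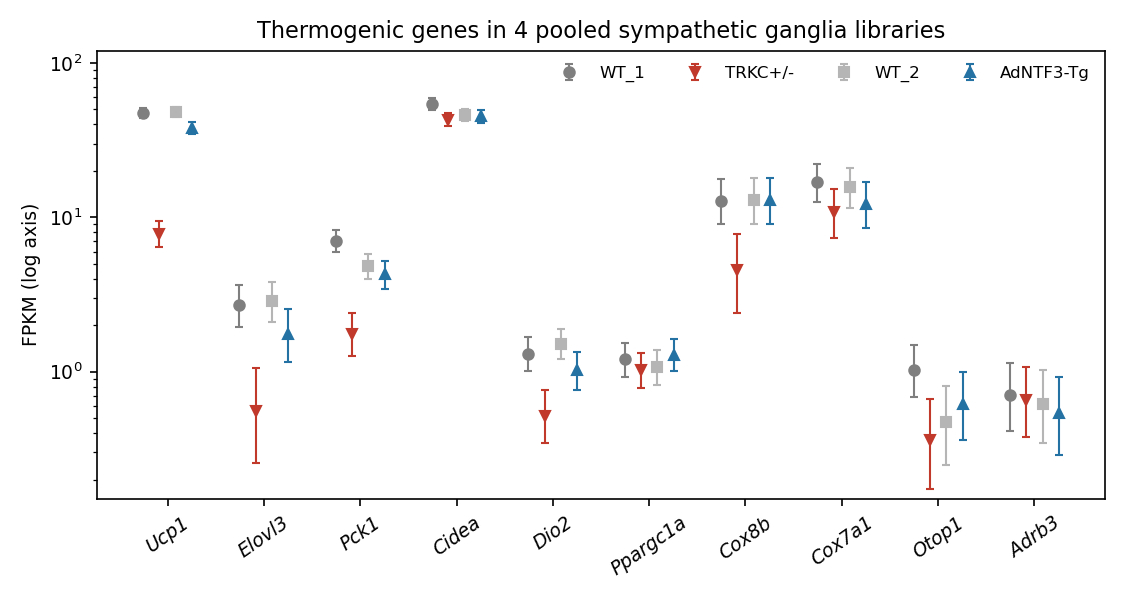
FPKM of the 10 thermogenic genes on a log axis, 1 point per library, with bars for the exact 95% Poisson interval of the reads, which covers counting error only. The library labelled TRKC+/- (red) is the lowest of the 4 for 9 of the 10 genes, as for 20.9% of all 15275 genes, with Ucp1 at 7.80 FPKM against 37.8 to 48.1 in the others, while the 4 points for Cidea lie between 43.0 and 54.3.

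Ucp1 (gene on chr8:85814247-85822355, NCBIM37, plus strand) had 655 reads in WT_1, 110 in the library labelled TRKC+/-, 672 in WT_2 and 525 in AdNTF3-Tg. The pair of WT libraries were nearly equal, AdNTF3-Tg was somewhat lower, and the library labelled TRKC+/- stood apart below all 3. It was 6.00-fold lower than WT_1 (log2 difference -2.59, 95% counting interval -2.92 to -2.32) and 6.11-fold lower than WT_2 (-2.61, -2.92 to -2.33). WT_1 and WT_2 themselves differed by -0.02 (-0.16 to 0.15). Among 12752 genes averaging 1 FPKM or more, Ucp1 had the lowest value when each gene was scored by the smaller of its differences from WT_1 and WT_2, followed by Cyp2b10, a cytochrome P450, at -2.45 on 4 reads and Elovl3 at -2.09 on 9. These intervals come from the exact binomial split of the reads of each library pair, and PCR copies and differences between mice are not in them.

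Among members that handle lipid, Elovl3 and Pck1 were low together with Ucp1 in the library labelled TRKC+/- and Cidea was not. Elovl3 (chr19:46206387-46210184, plus strand) elongates saturated very long fatty acids and is strongly induced by cold in brown fat. It had 43 reads in WT_1, 9 in the library labelled TRKC+/-, 46 in WT_2 and 28 in AdNTF3-Tg. The differences of the library labelled TRKC+/- were -2.09 (-3.52 to -1.24) from WT_1 and -2.17 (-3.58 to -1.31) from WT_2. Pck1 (chr2:172978549-172984774, plus strand) is the cytosolic phosphoenolpyruvate carboxykinase, which in fat supplies glycerol for re-esterification. It had 157, 40, 109 and 96 reads in the same order of libraries. This gave -1.94 (-2.55 to -1.50) and -1.41 (-2.01 to -0.92), and WT_1 was itself higher than WT_2 by 0.53 (0.19 to 0.92), so the size of the Pck1 difference depended on the WT library chosen. Cidea (chr18:67503218-67527448, plus strand) is a lipid droplet protein that is abundant in brown adipocytes. Its reads were 525, 423, 447 and 437, a ratio of 1.26 in FPKM between the highest and the lowest library. The library labelled TRKC+/- differed from WT_1 by -0.34 (-0.54 to -0.16) and from WT_2 by -0.10 (-0.28 to 0.11), against 0.24 (0.08 to 0.45) between WT_1 and WT_2, so the second of these lay within the spread of the WT pools.

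Among members that carry or amplify the adrenergic signal, only Dio2 passed the cutoff in the library labelled TRKC+/-. Adrb3 (chr8:28336248-28340060, minus strand), the receptor itself, had 17 reads in WT_1, 16 in the library labelled TRKC+/-, 15 in WT_2 and 13 in AdNTF3-Tg. All 4 counting intervals overlapped, and with so few reads the interval against WT_2 ran from -1.03 to 1.20, which leaves a wide range of differences undetectable at this depth. Dio2 (chr12:91962994-91976878, minus strand), which turns thyroxine into active T3 within the brown adipocyte, had 66, 27, 78 and 52 reads. The library labelled TRKC+/- differed by -1.19 (-2.03 to -0.66) and -1.39 (-2.23 to -0.89), which is past the difference of -0.20 between the WT libraries. Ppargc1a (chr5:51845488-51958964, minus strand), the coactivator of mitochondrial and Ucp1 transcription, had 67, 59, 61 and 73 reads. Its differences in the library labelled TRKC+/- were -0.20 (-0.75 to 0.31) and -0.05 (-0.60 to 0.48), and its 4 libraries spanned a ratio of 1.25.

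The mitochondrial members Cox8b and Cox7a1, subunits of respiratory complex IV that are used in brown fat, muscle and heart, were both past the cutoff in the library labelled TRKC+/-. Cox8b (chr7:148084842-148086345, minus strand) had 37 reads in WT_1, 13 in the library labelled TRKC+/-, 36 in WT_2 and 36 in AdNTF3-Tg. WT_1, WT_2 and AdNTF3-Tg coincided, and the library labelled TRKC+/- was 2.79-fold and 2.81-fold lower than the WT libraries, with intervals of -2.58 to -0.60 and -2.52 to -0.53 on the log2 scale. Cox7a1 (chr7:30969190-30971047, plus strand) had 50, 32, 45 and 35 reads, so that both mutant libraries lay below both WT libraries. The library labelled TRKC+/- differed by -0.64 (-1.37 to -0.01) and -0.53 (-1.20 to 0.19), just past the cutoff. Otop1 (chr5:38667211-38695448, plus strand), a proton channel expressed in brown fat, had 28, 10, 13 and 17 reads. It was past the cutoff against WT_1 at -1.30 (-2.73 to -0.44) and not against WT_2 at -0.31 (-1.74 to 0.92), and the largest part of its range lay between the WT libraries, which differed by 0.99 (0.14 to 2.21).

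Counted together, 7 of the 10 members in the library labelled TRKC+/- were lower than in WT_1 by at least 0.5 on the log2 scale (Ucp1, Elovl3, Pck1, Dio2, Cox8b, Cox7a1 and Otop1), where 6.06% of all 15275 genes were, and none was higher, where 4.63% of all genes were. Against WT_2, 6 were lower (the same without Otop1), with 5.92% of all genes, and none was higher, with 6.74%. These 6 were lower than both WT libraries, as were 2.49% of all genes, and no member was higher than both, as were 1.78%. For 5 of them, Ucp1, Elovl3, Pck1, Dio2 and Cox8b, both counting intervals also lay below 0, which held for 61 genes or 0.399% of all. This criterion was added after the values were seen. The median difference of the 10 members was -1.24 from WT_1 and -0.96 from WT_2, and that of all genes 0 in both. Because the members were chosen with these differences known, nothing beyond a description follows from the counts. All 10 together had 1645 reads in WT_1, 739 in the library labelled TRKC+/-, 1522 in WT_2 and 1312 in AdNTF3-Tg. Without Ucp1 the sums were 990, 629, 850 and 787, so the order of the libraries held for the other 9 members summed.

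**Figure D2:**
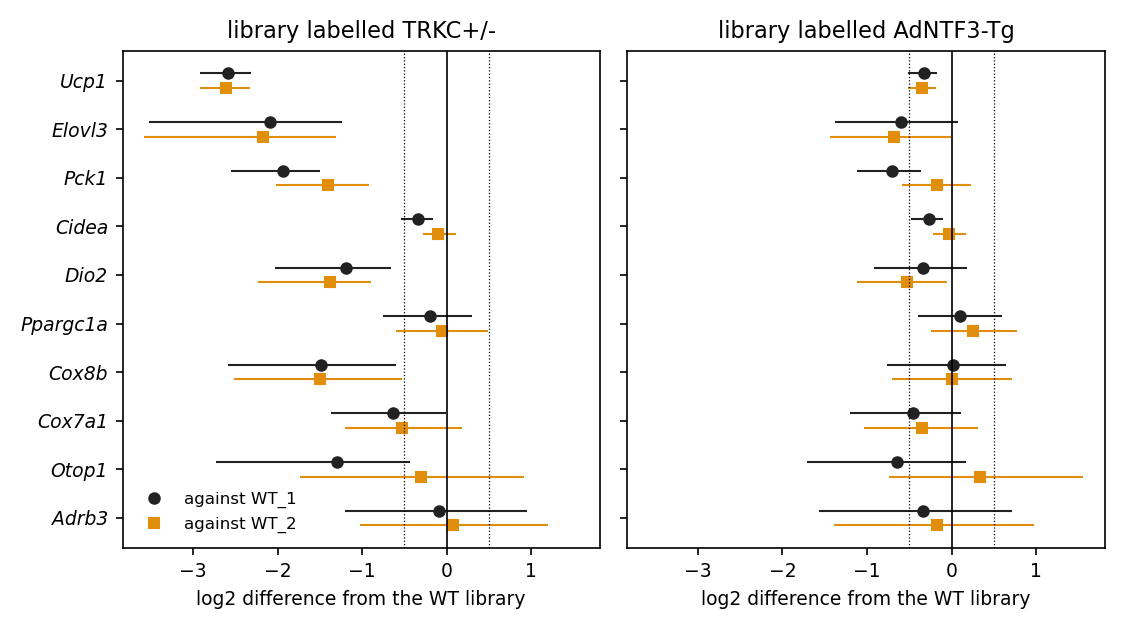
Log2 difference of each thermogenic gene between a mutant library and WT_1 (black circles) or WT_2 (orange squares), from FPKM with 0.1 added. Lines are exact 95% counting intervals of the read ratio and dotted lines mark the cutoff of 0.5. On the left, Ucp1, Elovl3, Pck1, Dio2 and Cox8b lie below the cutoff with intervals below 0 against both WT libraries. On the right, Ucp1 lies at -0.32 and -0.35 and most intervals include 0.

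In AdNTF3-Tg, the thermogenic genes lay close to the WT libraries and mostly slightly under them. Ucp1 differed by -0.32 (-0.51 to -0.17) from WT_1 and by -0.35 (-0.52 to -0.18) from WT_2, intervals below 0 but values short of the cutoff. Elovl3 was at -0.60 (-1.38 to 0.08) and -0.68 (-1.44 to -0.00), the only member past the cutoff against both WT libraries, which held for 3.58% of all genes in that direction and, with no member, for 2.12% in the other. Against WT_1, 3 members were lower (Elovl3, Pck1 and Otop1; 8.24% of all genes) and none higher (5.62%). Against WT_2, 2 were lower (Elovl3 and Dio2; 7.1% of all genes) and none higher (6.21%). Cox8b differed by 0.02 and 0.01, and Ppargc1a by 0.10 and 0.25. The median of the members was -0.34 and -0.17, with that of all genes at -0.00 and 0. By any amount, 7 of 10 members lay below both WT libraries (34% of all genes), 2 above both (33.7%), and 9 above the library labelled TRKC+/- (48.3%). All of these comparisons use the same WT libraries and are not independent of each other.

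The WT libraries were close for most members. Against WT_2, WT_1 was higher past the cutoff for Otop1 and Pck1, as for 7.71% of all genes, and lower for none, as for 5.67%. The median member differed by 0.13 and the median of all genes by 0.01. Ucp1, Elovl3 and Cox8b, at -0.02, -0.08 and -0.01, were among those that differed least between the WT pools.

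Set against each other within a library, the members did not keep 1 ratio. Ucp1 took 39.8% of the reads of the 10 members in WT_1 (exact 95% binomial interval 37.4 to 42.2), 44.2% in WT_2 (41.6 to 46.7) and 40.0% in AdNTF3-Tg (37.4 to 42.7), but 14.9% in the library labelled TRKC+/- (12.4 to 17.7). Ucp1 reads per Elovl3 read were 15.2 in WT_1, 12.2 in the library labelled TRKC+/-, 14.6 in WT_2 and 18.8 in AdNTF3-Tg, with all 4 intervals overlapping. Ucp1 reads per Cidea read were 1.25, 0.260, 1.50 and 1.20, and the interval of the library labelled TRKC+/- (0.209 to 0.321) lay far below the others. Ucp1 was thus low relative to Cidea, while the ratio to Elovl3, which rests on 9 Elovl3 reads in the library labelled TRKC+/- (interval 6.21 to 27.4), would hide a difference of moderate size. For the library labelled TRKC+/-, the interval of this ratio lay clear of both WT intervals for 5 members, Cidea, Dio2, Ppargc1a, Cox7a1 and Adrb3, overlapped that of WT_1 alone for Pck1 and Otop1, and overlapped both for Elovl3 and Cox8b. Over all 15275 genes it lay clear of both WT intervals for 91.5%, so a clear interval describes Ucp1 and not the gene it is set against. An overlap is also easier with few reads, and Elovl3, Cox8b and Otop1 had 9 to 13 in that library. Per Ppargc1a read there were 1.86 Ucp1 reads (1.35 to 2.60) against 9.78 in WT_1 and 11.0 in WT_2. For AdNTF3-Tg, the intervals overlapped those of both WT libraries for all 9 other members, and lay clear of both for 22.8% of all genes.

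**Figure D3:**
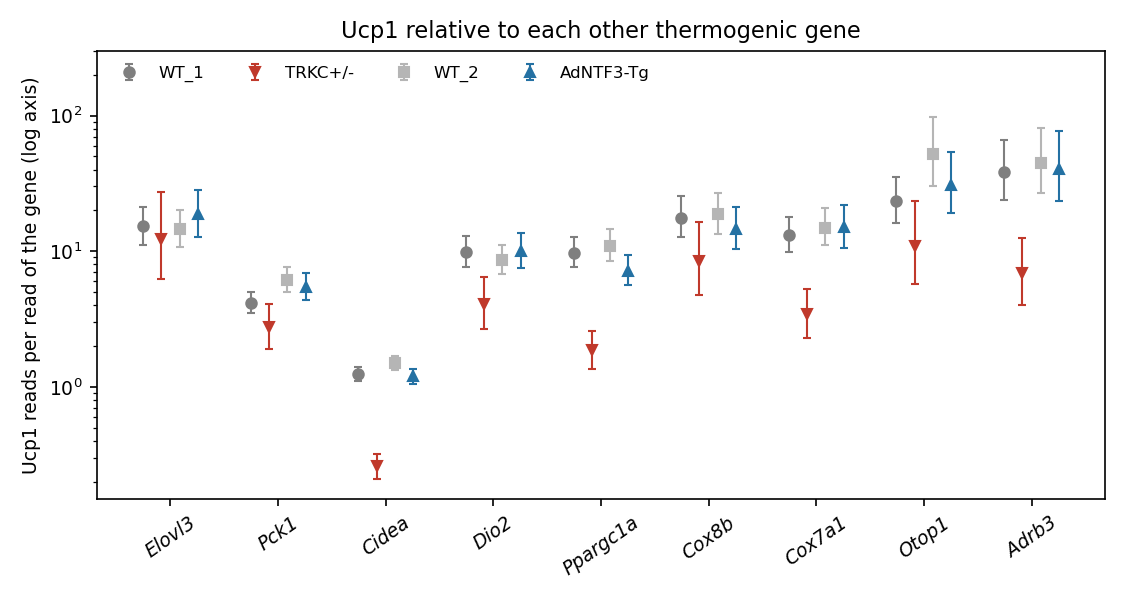
Ucp1 reads per read of each other thermogenic gene on a log axis, 1 point per library, with exact 95% counting intervals. The library labelled TRKC+/- (red) sits with the others for Elovl3, at 12.2 against 14.6 to 18.8, and well below them for Cidea, at 0.260 against 1.20 to 1.50.

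Likeness to Ucp1 was measured as the Euclidean distance between log2 levels centred per gene over the 4 libraries, a description over 4 points only. Out of 12764 genes averaging 1 FPKM or more, missing values taken as 0, the nearest were Cyp2b10 (distance 0.45), Elovl3 (0.56), Cox8b (0.91), Pck1 (0.92) and Gm6654 (1.03). So 3 of the 5 were members, chosen with these values known. Cyp2b10 had 29 reads in WT_1, 4 in the library labelled TRKC+/-, 29 in WT_2 and 16 in AdNTF3-Tg. Gm6654 had 2.06 to 12.3 expected reads, fractions that come from reads shared with other loci, and its values are uncertain.

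The closest relatives of the members were mostly within the cutoff. Of 25 paralogs, 23 were listed and 22 were listed in all 4 libraries. Only Otop2, on 5, 1, 5 and 3 reads in WT_1, the library labelled TRKC+/-, WT_2 and AdNTF3-Tg, was lower than both WT libraries in the library labelled TRKC+/-, where 2.49% of all genes were, and none was higher. Against WT_1 alone 3 were lower (6.06% of all genes) and none higher (4.63%), and against WT_2 alone 1 was lower (5.92%) and 2 higher (6.74%). In AdNTF3-Tg 3 were lower (8.24%) and 2 higher (5.62%) than in WT_1, and none was lower (7.1%) and 2 were higher (6.21%) than in WT_2. Ucp2, a carrier of the same family found in many cell types, was at 27.7, 28.3, 26.9 and 22.7 FPKM in the same order. Ucp1 was above it in WT_1, WT_2 and AdNTF3-Tg and below it, at 7.80 FPKM, in the library labelled TRKC+/-. Ucp3, the muscle form, was at 1.06, 0.89, 0.38 and 1.05 FPKM. Cox8a, the form of the COX8 subunit used in most tissues, was at 467, 475, 465 and 398 FPKM, far above Cox8b, and Cox7a2 was at 180, 146, 146 and 141. Pck2, the mitochondrial carboxykinase, stayed between 14.4 and 16.5 FPKM and Elovl5 between 85.0 and 89.2. Cidec, the lipid droplet protein of white fat, was at 15.0, 10.9, 11.6 and 9.10 FPKM. Adrb1 had 2 reads in WT_1 and was listed in no other library, and Dio3 was higher than both WT libraries in AdNTF3-Tg on 4 reads. In the 10 nuclear complex IV subunits used in most tissues, no gene was lower or higher than both WT libraries in either mutant library. In each direction and library, 1.78% to 3.58% of all genes were. By any amount, AdNTF3-Tg was lowest for 8 of these 10 (27.3% of all genes) and WT_1 highest for 7 (25.4%).

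The other brown and beige fat genes differed in a minority of cases. Of 26 listed in all 4 libraries, 4 were lower than both WT libraries in the library labelled TRKC+/- (Zic1, Cpt1b, Plin5 and Pdk4), where 2.49% of all genes were, and 1 was higher (Ckmt2, on 5 reads), where 1.78% were. Against WT_1 alone 6 were lower (6.06%) and 1 higher (4.63%), and against WT_2 alone 4 were lower (5.92%) and 4 higher (6.74%). Their median difference was -0.11 from WT_1 and -0.02 from WT_2, and that of all genes 0 in both. Cpt1b, which brings fatty acids into mitochondria, had 115, 53, 93.6 and 66 reads in WT_1, the library labelled TRKC+/-, WT_2 and AdNTF3-Tg. Plin5, a lipid droplet protein of oxidative tissues, had 30, 9, 20 and 31 reads, and Pdk4, a kinase that turns down glucose oxidation, had 96, 51, 105 and 95. Zic1, a transcription factor gene of brown fat lineages, had 10, 1, 11 and 7 reads. Slc27a2, a fatty acid transporter and acyl-CoA synthetase, had 14, 29 and 11 in WT_1, WT_2 and AdNTF3-Tg and was not listed in the library labelled TRKC+/-. With 3 reads put in for that library, it would be 4.79-fold and 9.72-fold lower than WT_1 and WT_2. These folds leave out the counting error of the WT reads and are not lower bounds. Zic1, Ckmt2 and Slc27a2 were picked out after their values were seen.

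General fat genes and skeletal muscle genes also varied between libraries, and the source of their RNA was not tested. Of 22 general adipocyte genes, all were listed in all 4 libraries. WT_1 was highest for 13 of them (25.4% of all genes), and the lowest library was the one labelled TRKC+/- for 8 (20.9%), WT_2 for 7 (25.2%) and AdNTF3-Tg for 6 (27.3%). Past the cutoff, 8 were higher in WT_1 than in WT_2 (7.71% of all genes) and none lower. AdNTF3-Tg was below WT_1 for 8 (8.24%) and below WT_2 for 3 (7.1%), and above either for none. The library labelled TRKC+/- was below WT_1 for 5 (6.06%) and above it for 1 (4.63%), and below WT_2 for 5 (5.92%) and above it for 2 (6.74%). Lower than both WT libraries in the library labelled TRKC+/-, as were 2.49% of all genes, were 3: Fabp4, the fatty acid binding protein of adipocytes, Lpl, lipoprotein lipase, and Slc2a4, the insulin-responsive glucose transporter. Fabp4 had 1260, 701, 1149 and 879 reads in WT_1, the library labelled TRKC+/-, WT_2 and AdNTF3-Tg, with differences of -0.86 (-1.02 to -0.75) and -0.74 (-0.86 to -0.58) in the library labelled TRKC+/-. Adipoq, the gene of adiponectin, had 144, 94, 78 and 71 reads, so the library labelled TRKC+/- was lower than WT_1 and higher than WT_2. Plin1, the coat protein of adipocyte lipid droplets, was even, at 98, 85, 94 and 100 reads. The median of the list was -0.22 from WT_1 and 0.11 from WT_2, with summed levels of 3783 to 4034 CPM (reads scaled to the total of the library) over the libraries, much of it from lipid synthesis genes such as Acly and Scd1 that other cells also use. Ucp1 reads per Plin1 read were 6.68, 1.29, 7.15 and 5.25, and per Fabp4 read 0.520, 0.157, 0.585 and 0.597. Per Adipoq read they were 4.55, 1.17, 8.62 and 7.39. For Adipoq the intervals of WT_1 (3.79 to 5.49) and WT_2 (6.81 to 11.0) did not overlap. These ratios were added after the values were seen. The part of adipocyte content in the Ucp1 difference was not tested.

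The 20 skeletal muscle genes summed to 216 CPM in WT_1, 96.6 in the library labelled TRKC+/-, 16.7 in WT_2 and 74.6 in AdNTF3-Tg. Of the 17 listed in all 4 libraries, WT_1 was highest for 16 (25.4% of all genes) and WT_2 lowest for 16 (25.2%). No gene of the list was past the cutoff on the same side of both WT libraries in either mutant library, where 1.78% to 3.58% of all genes were per direction. Acta1, the actin of skeletal muscle, had 262, 129, 14 and 97 reads. WT_1 was thus at the upper and WT_2 at the lower end of the muscle range. Cox8b and Cox7a1, which muscle also expresses, had 37 and 50 reads in WT_1 and 36 and 45 in WT_2. The part of muscle RNA in the differences of the members was not tested.

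**Figure D4:**
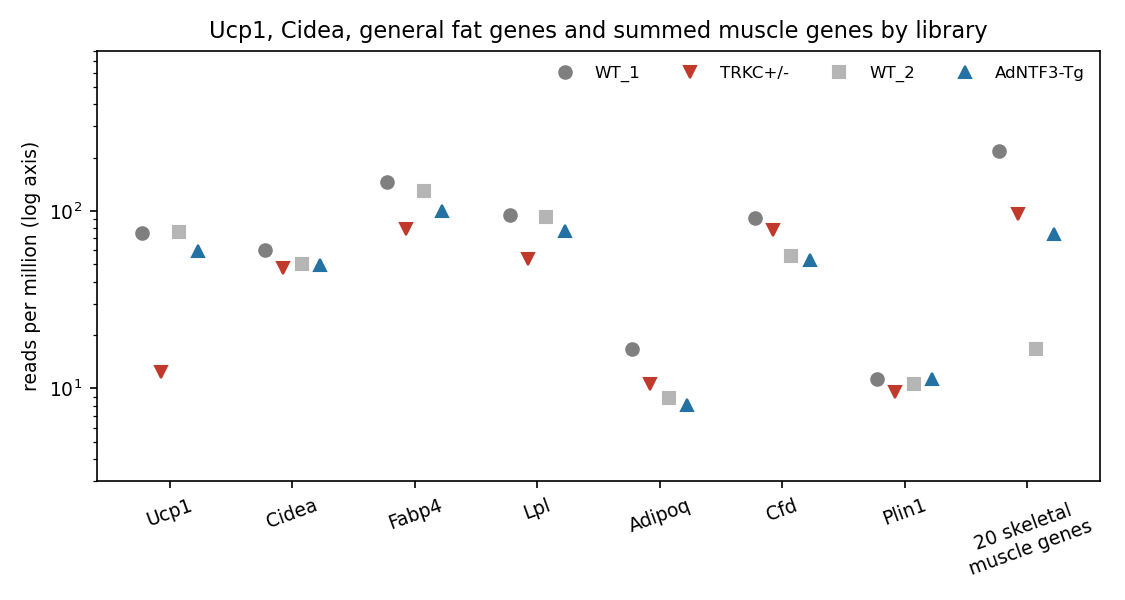
Levels in CPM, on a log axis, of Ucp1, Cidea, 5 general adipocyte genes and the sum of 20 skeletal muscle genes, 1 point per library. Ucp1 is far lower in the library labelled TRKC+/- (red), Fabp4 and Lpl are moderately lower, and Plin1 is even. Adipoq and Cfd in that library lie below WT_1 and above WT_2. Adipoq is at 10.6 against 16.6 in WT_1 and 8.82 in WT_2, and Cfd at 78.1 against 90.8 and 55.6. The muscle sum is highest in WT_1 at 216 and lowest in WT_2 at 16.7.

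Genes of adrenergic and lipolytic signalling were mostly within the cutoff. Of 17 listed in all 4 libraries, Adra1a alone was lower than both WT libraries in both mutant libraries, where 2.49% of all genes were for the library labelled TRKC+/- and 3.58% for AdNTF3-Tg, on 7, 1, 9 and 2 reads in WT_1, the library labelled TRKC+/-, WT_2 and AdNTF3-Tg, and it was named after its values were seen. Against single WT libraries, 1 gene was lower in the library labelled TRKC+/- than in WT_1 (6.06% of all genes) and 2 than in WT_2 (5.92%), and none was higher. In AdNTF3-Tg 1 was lower than in WT_1 (8.24%), and 1 was lower (7.1%) and 1 higher (6.21%) than in WT_2. Gnas, the stimulatory G protein that couples beta receptors to adenylate cyclase, lay between 3475 and 3528 FPKM. In AdNTF3-Tg, none of the other brown and beige fat genes was lower (3.58% of all genes) or higher (2.12%) than both WT libraries. Among the general adipocyte genes, Lep, the gene of leptin, with 3 reads, and Aqp7, a glycerol channel named after its values were seen, with 5.29 expected reads, were lower than both, 2 of 22 where 3.58% of all genes were. Of the 8 respiratory isoforms typical of muscle and heart, 7 were listed in all 4 libraries, and those past the cutoff against both WT libraries in the library labelled TRKC+/- were again Cox8b, Cox7a1 and, in the other direction, Ckmt2. None of 10 glial and 10 endothelial genes was past the cutoff on the same side of both WT libraries in either mutant library, where 1.78% to 3.58% of all genes were per direction.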

How the data were processed

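T1-T4 SG were frozen, RNA was extracted, poly(A) RNA was selected with oligo(dT) beads and sequenced as single-end reads. Per the study's methods, reads were filtered with SOAPnuke and mapped with HISAT2 to mm9, while the submitters' processing notes name RSEM and mm10, and neither says whether counting used strand. The authors deposited, for each Entrez gene, an expected count, not normalized and with fractions where reads were shared between genes (92.6% to 93.7% were whole), and an FPKM value that scales it to gene length and library. Gene symbols were matched for 99.7% of identifiers.

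The members and lists were chosen with earlier results of these data known. Log2 differences were taken from FPKM + 0.1 for the 15275 genes found in each library, with a cutoff of 0.5, which understates differences of low genes. Exact Poisson and binomial 95% intervals used expected counts rounded to whole numbers (SciPy 1.17.1) and ignore everything but counting error. The 3-read floor stands in for absent reads and leaves out the counting error of the other library. Libraries were grouped by genotype labels, and replicates were not averaged. Besides the members and their paralogs, genes were named when among the 4 highest of a list, past the cutoff against both WT libraries while averaging 1 FPKM or more, defining markers, or among the 5 nearest to Ucp1. Gene positions came from GENCODE vM1 on NCBIM37. Alternatives were a pseudocount of 1 or 0.01, only genes averaging 1 FPKM or more, missing genes as 0, centred ratios, a cutoff of 1, the averaged WT libraries in place of either, and rounded expected counts scaled by edgeR 4.0.16 (TMM) or DESeq2 1.42.0 (size factors). Methods were tested on simulated data. Protein comparisons of the members with their paralogs were not analysed here.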

Additional observations from a re-analysis of the deposited data

How the results depend on the processing

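The direction of every member difference past the cutoff held in every alternative that recomputed it. In the library labelled TRKC+/-, 5 or 6 members were lower than both WT libraries in every alternative that gives this count (the WT mean does not), and none was higher. Counts in AdNTF3-Tg and between the WT libraries, which rest on values near the cutoff or on low genes, were less firm. Otop1 between the WT libraries, at 0.99 on 28 and 13 reads, is such a low gene. Members lower in AdNTF3-Tg than in WT_1 numbered 3, and 1 with a pseudocount of 1, 0 with a cutoff of 1, 1 against the mean of the WT libraries and 1 where the counting interval had also to exclude 0, a criterion added after seeing the data. Members lower than in WT_2 numbered 2, and 0 with a pseudocount of 1, 0 with a cutoff of 1 and 1 against the WT mean. Elovl3, the 1 member lower than both, was no longer counted with a pseudocount of 1 (0), a cutoff of 1 (0) or the interval (0). The 2 members higher in WT_1 than in WT_2 became 0 with a pseudocount of 1, 1 when genes averaging under 1 FPKM were left out and 0 with a cutoff of 1. Of 380 recomputed member differences, 377 kept within counting error; with a pseudocount of 1, Dio2 in the library labelled TRKC+/- was at -0.60 and -0.73 and Elovl3 against WT_2 at -1.31, since 1 FPKM is large beside their levels. Among all genes, those lower than both WT libraries in the library labelled TRKC+/- numbered 381, and 62 with a pseudocount of 1, 140 without genes averaging under 1 FPKM, 640 when missing genes counted as 0, 85 with a cutoff of 1 and 61 with the interval. For AdNTF3-Tg they numbered 547, and 120, 242, 852, 119 and 120. Those higher than both numbered 272, and 43, 69, 675, 48 and 35, and for AdNTF3-Tg 324, and 45, 90, 700, 58 and 75. The same 5 settings moved the counts of single comparisons by over 1.5 times, from 707 to 1258 per direction down to 134 to 437 with a pseudocount of 1, for example. With the WT mean in place of WT_2, genes higher in the library labelled TRKC+/- went from 1029 to 531 and in AdNTF3-Tg from 948 to 613. No paired analysis was possible because each mutant group has 1 library and the labels tie no WT library to a mutant. Depth limits Adrb3, Otop1, Elovl3 and Cox8b most, with 9 to 16 reads in the library labelled TRKC+/-, and a difference between single pools holds no spread between mice.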
